A study of Mus musculus with 6 samples.

Results

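Prothrombin, its receptors and the genes that start or restrain the making of thrombin were followed in fetal mouse diaphragm, to ask whether the muscle or the Schwann lineage holds their RNA. The 10 genes, F2, F2r, F2rl1, F2rl2, F2rl3, F3, Tfpi, Tfpi2, Thbd and Procr, were listed by symbol for their place in the pathway, with earlier results of these data known. All 10 were found among the 23073 genes with a value in the files. RNA levels are given as RPKM, which divides reads by transcript length and by depth, so that levels of different genes can be set side by side per length. RNA-Seq was done on embryonic diaphragm at E14.75 in 6 libraries, 2 per group, of 100178863 to 230216660 mapped reads. Total RNA of whole muscle came from erbB3 WT embryos (replicates 5 and 6) and from erbB3 KO embryos (replicates 1 and 2), whose diaphragm lacks Schwann cells. The Wnt1-Ribotag libraries (replicates 1 and 2) held RNA pulled down with HA-tagged Rpl22 ribosomes from diaphragms of Wnt1-Cre, Ribotag embryos that were WT for erbB3. Each was a pool of 4 Cre-positive diaphragms from a litter homogenized whole, with its Cre-negative littermates, and gave much less RNA than whole muscle. Wnt1-Cre drives recombination in the neural crest, which gives rise to Schwann cells but also to sensory and autonomic neurons. Against erbB3 KO the Wnt1-Ribotag libraries differ in erbB3 genotype and in RNA preparation together, and these cannot be told apart. The study calls the whole-muscle libraries separate biological samples, whether of 1 embryo or of several is not given in the sources used here, and p-values measure the spread between libraries.

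Thrombin is cut from prothrombin by factor Xa, clots fibrinogen, and signals to cells by clipping the extracellular end of protease-activated receptors (PARs). Tissue factor starts the cascade when blood meets cells outside the vessel, and tissue factor pathway inhibitors restrain that step. Bound to thrombomodulin, thrombin instead activates protein C, which the endothelial protein C receptor presents, and thrombin acting through PAR1 has long been studied as a signal that weakens contacts between motor axons and muscle.

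Erbb3, the targeted gene, was at 16.5 and 15.8 RPKM in the erbB3 WT libraries, 21.5 and 11.9 in the erbB3 KO libraries and 19.5 and 25.3 in the Wnt1-Ribotag libraries. The WT and KO ranges overlapped. Where the mutant allele interrupts the gene is not given in the sources used here, so the RPKM of the whole gene is no check of the genotype, which is taken from the labels. Sox10, a transcription factor of the Schwann lineage, was at 2.89 and 2.16 RPKM in erbB3 WT, 0.0085 and 0.018 in erbB3 KO, and 15.5 and 32.2 in Wnt1-Ribotag. Summed over 9 Schwann lineage markers, the level was 15.2 and 15.1 in erbB3 WT, 4.599 and 3.50 in erbB3 KO, and 103 and 298 in Wnt1-Ribotag, where Fabp7 was the most abundant of them. Schwann lineage RNA was thus lowest in the libraries labelled KO and highest in those labelled Ribotag.

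Muscle RNA was not depleted from the Wnt1-Ribotag libraries. The 10 skeletal muscle markers, led by Acta1, summed to 2249 and 1944 RPKM there, within or above the 2032 and 1696 of erbB3 WT. The 8 neuron markers, of which 7 were found, summed to 107 and 469 RPKM in Wnt1-Ribotag, led by Stmn2, 13.1 and 60.4 in erbB3 WT, and 8.78 and 11.8 in erbB3 KO. An RNA present in the Wnt1-Ribotag libraries at the level of whole muscle can therefore have come from muscle, Schwann cells, neurons or other cells, and these cannot be told apart. In all 6 libraries, fewer cells of a type and less RNA per cell cannot be told apart either.

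Differences were tested with limma on log2(RPKM + 0.5) over all genes whose RPKM averaged 0.5 or more in the 4 libraries compared, at an adjusted p of 0.05. A fold change on this scale understates that of genes near or below 0.5 RPKM. Of 14052 genes, 24 (0.171%) passed between erbB3 KO and erbB3 WT, 7 higher and 17 lower in erbB3 KO. Of 14418 genes, 1 (0.00694%) passed between Wnt1-Ribotag and erbB3 WT, and of 14325 genes, 171 (1.19%) passed between Wnt1-Ribotag and erbB3 KO, 146 higher and 25 lower in Wnt1-Ribotag. None of the 10 genes passed limma in any of the 3 comparisons. F2rl2 was under the filter in all 3 and F2rl3 in both that involve Wnt1-Ribotag, so that 9, 8 and 8 genes were tested. An unadjusted p under 0.05 was reached by 3 of them in erbB3 KO vs. WT (F2, F2r and F2rl1), 2 in Wnt1-Ribotag vs. WT (F3 and Thbd) and 2 in Wnt1-Ribotag vs. KO (F2 and Procr), beside 1691, 2813 and 2758 of all genes tested. With 2 libraries against 2, an exact permutation test of a single gene (two-sided) cannot go below 0.33.

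Size was also counted without a test. On the same log2 scale, none of the 9, 8 and 8 genes tested was 2-fold or more apart, with 1 sign, in every one of the 4 pairs of libraries, beside 0.448% of genes in erbB3 KO vs. WT, 2.34% in Wnt1-Ribotag vs. WT and 3.95% in Wnt1-Ribotag vs. KO. The added 0.5 rules such a call out for F2rl2, whose RPKM itself was over 2-fold apart in all 4 pairs of each comparison, as was that of F2rl3 in Wnt1-Ribotag vs. WT, both under the filter there. The values of both erbB3 KO libraries lay below both erbB3 WT libraries in 6 of the 9 genes tested, beside 37.4% of all genes, and above them in 2 of 9, beside 12.7%. Of 8 genes tested in Wnt1-Ribotag vs. WT, 3 were lower without overlap, beside 31.0% of all genes, and 1 was higher, beside 23.3%. In Wnt1-Ribotag vs. KO, 3 of 8 were lower, beside 24.4%, and 3 higher, beside 29.7%. Over all genes the log2 fold change in erbB3 KO vs. WT had a median of -0.10 as deposited and 0.0042 after median-ratio scaling of the libraries. After that scaling 23.2% of all genes were lower and 23.8% higher in erbB3 KO without overlap, and of the 9 genes tested F3 then overlapped. The calls of limma were then 11 higher and 16 lower, in place of 7 and 17.

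**Figure D1:**
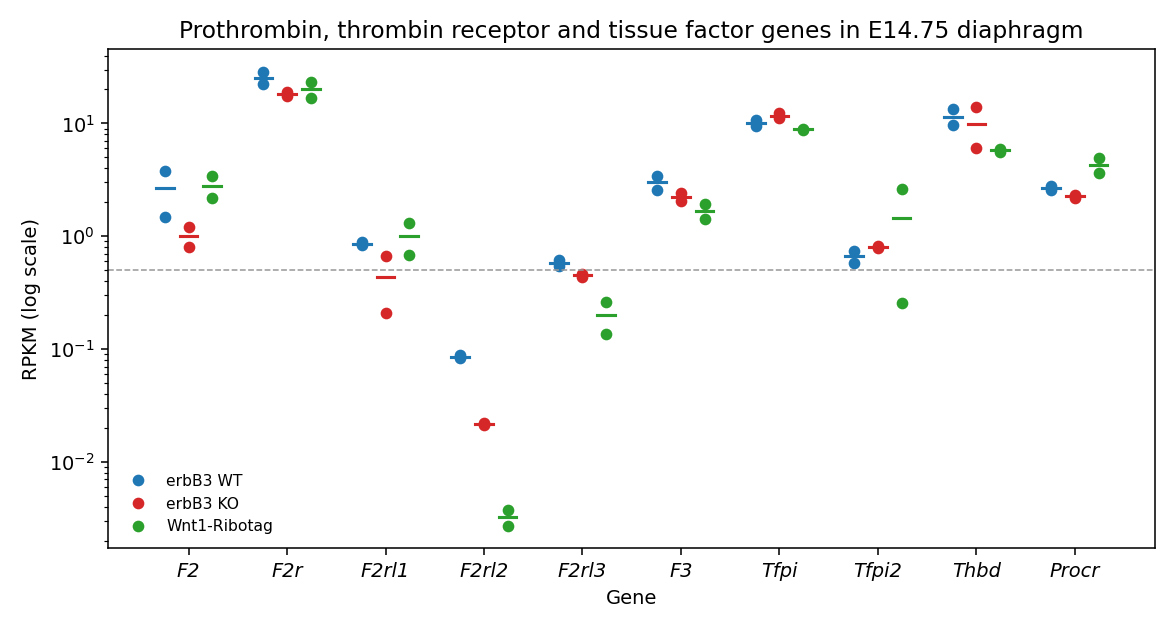
RPKM (log scale) of the 10 genes in each library of E14.75 diaphragm, with 1 point per library, a short bar at the mean of each group of 2, and a dashed line at the filter of 0.5 RPKM. F2r is the highest gene in every library (16.8 to 28.5 RPKM) and F2rl2 the lowest (at most 0.088), while F2 spans 0.804 to 3.81 RPKM.

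F2 encodes prothrombin, the precursor of thrombin, which in the fetus is made above all by the liver and yolk sac. It was at 3.81 and 1.49 RPKM in erbB3 WT, 1.22 and 0.804 in erbB3 KO, and 3.43 and 2.19 in Wnt1-Ribotag. Both KO libraries lay below both WT libraries, but WT 5 was further from WT 6 than WT 6 was from either KO library. The Wnt1-Ribotag and WT ranges overlapped. In erbB3 KO vs. WT the log2 fold change was -0.97, with an SE of 0.34 and an adjusted p of 0.378 from limma, or -0.88 once libraries were scaled by median ratios. Leaving out erbB3 WT replicate 6, it was -1.53, but leaving out WT replicate 5 it was -0.41. It was -1.17 without KO replicate 1 and -0.77 without KO replicate 2. In Wnt1-Ribotag vs. WT it was 0.15 (adjusted p = 0.875), and in Wnt1-Ribotag vs. KO 1.12 (SE 0.34, adjusted p = 0.173), with all 4 pairs between 0.65 and 1.59. The log2 fold change in Wnt1-Ribotag vs. KO was 0.84 without Wnt1-Ribotag replicate 1 and 1.395 without replicate 2.

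RNA of hepatocyte genes differed between the libraries along with F2. The 10 hepatocyte markers summed to 492 and 152 RPKM in erbB3 WT, 17.5 and 9.94 in erbB3 KO, and 274 and 188 in Wnt1-Ribotag, and all 10 were lower in erbB3 KO than in WT without overlap, beside 37.4% of all genes tested. Afp was the most abundant, at 200.2 and 74.1 RPKM in erbB3 WT and 6.35 and 3.24 in erbB3 KO. None of the 10 was at the floor in erbB3 WT or KO, and Fabp1 was at the floor in Wnt1-Ribotag 1. The part of this RNA in the levels of F2 was not tested.

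Relative to those markers, F2 was higher in the erbB3 KO libraries than in the other 4. Per 1000 RPKM of the hepatocyte list, F2 stood at 7.74 and 9.83 RPKM in erbB3 WT, 12.5 and 11.6 in Wnt1-Ribotag, and 69.5 and 80.9 in erbB3 KO. The same ratio for Fga, a fibrinogen chain made by hepatocytes, was 17.3 and 14.4 in erbB3 WT, 32.98 and 29.75 in Wnt1-Ribotag, and 16.4 and 12.3 in erbB3 KO, and for Serpinc1, antithrombin III, it was 6.40 and 5.90 in erbB3 WT, 3.99 and 6.32 in Wnt1-Ribotag, and 10.9 and 8.05 in erbB3 KO. For Proz, a clotting factor gene, it was 2.74 and 5.6 in erbB3 WT, 22.7 and 8.81 in Wnt1-Ribotag, and 32.7 and 45.2 in erbB3 KO. Both KO values stood above all others for Proz and Serpinc1, as for F2, but not for Serpind1, Proc and F10. The ratios of these genes were thus not constant over the groups either, Fga being highest in Wnt1-Ribotag. The mean of F2 in erbB3 KO was 38.1% of that in WT, while the hepatocyte sum was at 4.26%. Among all 30 genes found of F2, the thrombin inhibitors, the clotting factors and the fibrinolysis genes, whatever their level, 16 stood between 3.82 and 12.8% of the WT mean in erbB3 KO, and 10 between 68.4 and 145%, limits drawn after the values were seen. The other 4 were F2, Proz (46.5%), F9 (29.2%) and Serpina5. F9 and Serpina5 were at most at 0.0723 RPKM in each library, the percent of Serpina5 is not exact since it was at its floor in erbB3 KO 1, and Proz and F9 are named after their values were seen. Proz, which encodes protein Z, was at 1.35 and 0.850 RPKM in erbB3 WT and 0.573 and 0.449 in erbB3 KO, but unlike F2 it was higher in Wnt1-Ribotag than in WT without overlap, at 6.22 and 1.66 RPKM.

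**Figure D2:**
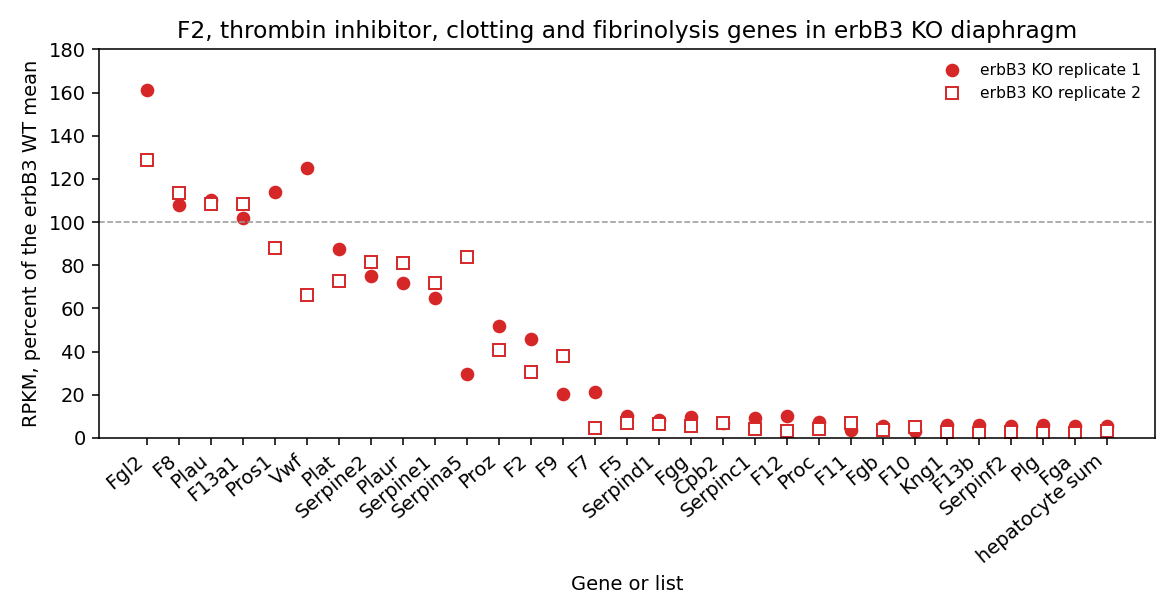
RPKM in each erbB3 KO library as a percent of the erbB3 WT mean, for F2 and every gene found of the thrombin inhibitor, clotting and fibrinolysis lists, ordered by the KO mean, with the summed hepatocyte markers at the right and a dashed line at 100. The 16 genes from F7 to Fga lie lowest, as does the hepatocyte sum (5.44 and 3.09%), and F2 (45.9 and 30.3%), Proz (52.1 and 40.8%), F9 (20.5 and 38.0%) and Serpina5, whose point for KO replicate 1 is the floor of a gene without reads, lie between them and the other genes.

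The 4 receptors are G protein-coupled. F2r encodes PAR1, the main thrombin receptor of many cell types, and was the most abundant of the 10 genes in every library, above 81.9 to 90.1% of all genes in the files. It was at 22.6 and 28.5 RPKM in erbB3 WT, 17.5 and 19.1 in erbB3 KO, and 23.3 and 16.8 in Wnt1-Ribotag. Both KO libraries lay below both WT libraries, and the Wnt1-Ribotag range overlapped those of both other groups. The log2 fold change was -0.46 in erbB3 KO vs. WT (SE 0.15, unadjusted p = 0.0170, adjusted p = 0.368 from limma) and -0.34 after median-ratio scaling. It was -0.35 in Wnt1-Ribotag vs. WT (adjusted p = 0.452 from limma) and 0.11 in Wnt1-Ribotag vs. KO (adjusted p = 0.837). The F2r mean in erbB3 KO was 71.6% of that in WT, in libraries where Sox10 was at most 0.018 RPKM. The summed neuron markers stood there at 27.93% of their WT mean, which rests largely on WT replicate 6. Their sums were 8.78 and 11.8 RPKM in erbB3 KO, beside 13.1 and 60.4 in WT. In Wnt1-Ribotag the F2r mean was 78.39% of that in WT. The median log2 fold change vs. WT there was 2.93 for Schwann lineage markers and 2.675 for neuron markers. Which cells held the F2r RNA was not tested.

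F2rl1 encodes PAR2, which trypsin-like proteases other than thrombin activate. It was at 0.885 and 0.831 RPKM in erbB3 WT, 0.666 and 0.207 in erbB3 KO, and 1.32 and 0.687 in Wnt1-Ribotag. It was lower in both KO libraries than in both WT libraries, and the KO libraries were further apart from each other than KO 1 was from WT. The log2 fold change in erbB3 KO vs. WT was -0.58 (SE 0.24, adjusted p = 0.410 from limma). Wnt1-Ribotag was above KO without overlap as deposited but not after median-ratio scaling. The difference was 0.69 in log2 units (SE 0.45, limma adjusted p = 0.439), or 1.002 without Wnt1-Ribotag replicate 2.

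F2rl3 encodes PAR4, a low-affinity thrombin receptor best known from platelets. It was at 0.616 and 0.540 RPKM in erbB3 WT, 0.437 and 0.463 in erbB3 KO, and 0.262 and 0.135 in Wnt1-Ribotag. The 3 groups did not overlap, with erbB3 WT highest and Wnt1-Ribotag lowest, at 34.4% of the WT mean (exact permutation p = 0.33, the smallest possible). The log2 fold change in erbB3 KO vs. WT was -0.18 (adjusted p = 0.613 from limma), and it was 0.013 after quantile normalization. Pf4, the most abundant of 10 megakaryocyte and platelet markers, was at 12.3 and 14.3 RPKM in erbB3 WT, 13.3 and 14.3 in erbB3 KO, and 12.7 and 4.82 in Wnt1-Ribotag. The 10 summed to 18.0 and 19.8 RPKM in erbB3 WT, 16.7 and 17.1 in erbB3 KO, where 7 of 10 were lower without overlap (37.4% of all genes tested), and 23.3 and 15.8 in Wnt1-Ribotag, where Gp6 was at the floor in both libraries. Of the 10, 3 were lower and 2 higher in Wnt1-Ribotag than in WT without overlap (31.0 and 23.3% of all genes tested). Only 4 of them were tested there, and none passed limma. Of the 2 higher, Gp1bb was at 7.75 and 7.88 RPKM in Wnt1-Ribotag, a large part of the sums there, beside 2.44 and 2.72 in WT. Of the 3 lower, Treml1 was at 0.0014 and 0.0047 RPKM, the latter its floor, beside 0.266 and 0.197 in WT. Both are named after their values were seen. The part of these markers in the level of F2rl3 was not tested.

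F2rl2 encodes PAR3, which in the mouse acts mainly as a cofactor of PAR4. It was at 0.088 and 0.083 RPKM in erbB3 WT, 0.021 and 0.022 in erbB3 KO, and 0.0037 and 0.0027 in Wnt1-Ribotag. The last value, of Wnt1-Ribotag 2, carries the flag of a gene without reads and is its floor. In units of that floor at each library's depth, the WT libraries were at 19.0 and 41.0, the KO libraries at 5.98 and 10.96, and Wnt1-Ribotag 1, which carries no such flag, at 0.983. The WT and KO groups were told apart only by a low number of reads (exact permutation p = 0.33). F2rl2 lies inside Iqgap2, on the opposite strand, and shares no exon with it in GRCm38. Iqgap2 was at 10.1 and 11.7 RPKM in erbB3 WT, 9.25 and 8.01 in erbB3 KO, and 6.36 and 6.82 in Wnt1-Ribotag, the same order of groups as F2rl2, and whether reads were counted by strand is not given in the sources used here.

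F2r made up 93.4 to 96.5% of the summed RPKM of the 4 receptors in the 6 libraries. In erbB3 WT its level was 25.5 and 34.3 times that of F2rl1 and 36.7 and 52.8 times that of F2rl3. F2r, F2rl1 and F2rl2 lie within 191 kb on chromosome 13 of GRCm38, while F2rl3 lies on chromosome 8. The genes that couple PARs to the cell were present in every library. Of 18 such genes, led by Rhoa, Gnai2 and Gnai3, all were tested in each comparison and none passed limma, with 4, 3 and 5 at an unadjusted p under 0.05 in erbB3 KO vs. WT, Wnt1-Ribotag vs. WT and Wnt1-Ribotag vs. KO, beside 12.03, 19.51 and 19.25% of all genes. Without overlap, 11 of the 18 were lower in erbB3 KO than in WT and 0 higher (37.4 and 12.7% of all genes), or 9 lower and 2 higher after median-ratio scaling (23.2 and 23.8%), 6 were lower and 9 higher in Wnt1-Ribotag than in WT (31.0 and 23.3%), and 2 were lower and 8 higher in Wnt1-Ribotag than in KO (24.4 and 29.7%). Rhoa, a small GTPase that PAR1 activates, was at 129 and 129.9 RPKM in erbB3 WT, 125 and 135 in erbB3 KO, and 110.3 and 136 in Wnt1-Ribotag. Gnai2 was at 154 and 141 RPKM in erbB3 WT and 136 and 101 in erbB3 KO, and Gnai3 at 47.7 and 53.9 in erbB3 WT and 48.7 and 54.8 in erbB3 KO. The median log2 fold change of the 18 was -0.26 in erbB3 KO vs. WT, beside -0.10 for all genes, 0.28 in Wnt1-Ribotag vs. WT, beside -0.05, and 0.26 in Wnt1-Ribotag vs. KO, beside 0.036.

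F3 encodes tissue factor, the membrane protein that starts clotting. It was at 2.58 and 3.45 RPKM in erbB3 WT, 2.07 and 2.40 in erbB3 KO, and 1.44 and 1.92 in Wnt1-Ribotag. The 3 groups did not overlap, with Wnt1-Ribotag lowest, although WT and KO overlapped after median-ratio scaling. F3 had a log2 fold change of -0.35 in erbB3 KO vs. WT (SE 0.18, adjusted p = 0.446 from limma), -0.69 in Wnt1-Ribotag vs. WT (SE 0.27, adjusted p = 0.254) and -0.34 in Wnt1-Ribotag vs. KO (adjusted p = 0.570). Without Wnt1-Ribotag replicate 2, the value vs. WT was -0.85, and without replicate 1 it was -0.53. It was -0.87 without WT replicate 5 and -0.51 without WT replicate 6. F7, the protease that tissue factor binds, was at 0.165 and 0.102 RPKM in erbB3 WT, 0.028 and 0.0060 in erbB3 KO, and at the floor in both Wnt1-Ribotag libraries, and is named after its values were seen. Over all genes, 5868 and 5128 were at the floor in the Wnt1-Ribotag libraries, beside 3581 and 2832 in erbB3 WT and 3334 and 2724 in erbB3 KO.

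Tfpi encodes the main inhibitor of tissue factor and factor Xa. It was at 9.57 and 10.8 RPKM in erbB3 WT, 12.3 and 11.1 in erbB3 KO, and 8.79 and 8.91 in Wnt1-Ribotag. KO was above WT and Wnt1-Ribotag below it, without overlap, although Wnt1-Ribotag and WT overlapped after median-ratio scaling. Tfpi had a log2 fold change of 0.19 in erbB3 KO vs. WT (SE 0.14, adjusted p = 0.541 from limma), and the distance of the KO libraries from each other was larger than that of KO 2 from WT 6. Tfpi exceeded F3 in every library, 3.72 and 3.13 times in erbB3 WT, 5.95 and 4.61 times in erbB3 KO, and 6.12 and 4.65 times in Wnt1-Ribotag.

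Tfpi2, a related Kunitz-type inhibitor deposited in extracellular matrix, was at 0.747 and 0.578 RPKM in erbB3 WT, 0.825 and 0.788 in erbB3 KO, and 2.64 and 0.255 in Wnt1-Ribotag. The Wnt1-Ribotag libraries lay on either side of all others. Its log2 fold change in Wnt1-Ribotag vs. WT was 0.41 (SE 0.71, adjusted p = 0.778 from limma), 1.43 without Wnt1-Ribotag replicate 2 and -0.62 without replicate 1. In Wnt1-Ribotag vs. KO it was 1.263 without Wnt1-Ribotag replicate 2 and -0.79 without replicate 1, beside 0.24 with all 4 libraries. The log2 fold change of Tfpi2 was 0.17 in erbB3 KO vs. WT (adjusted p = 0.640).

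Thbd encodes thrombomodulin, the surface receptor that turns thrombin toward protein C. It was at 9.73 and 13.3 RPKM in erbB3 WT, 13.9 and 6.05 in erbB3 KO, and 5.95 and 5.58 in Wnt1-Ribotag. The KO libraries lay on either side of WT, and differed from it by -0.29 in log2 units (SE 0.33, limma adjusted p = 0.688), or by 0.28 without erbB3 KO replicate 2. Both Wnt1-Ribotag libraries lay below all others, at 50.1% of the WT mean, and their difference from WT was -0.92 in log2 units (SE 0.22, unadjusted p = 0.0076, adjusted p = 0.178 from limma). The difference was -0.97 without Wnt1-Ribotag replicate 1 and -0.88 without replicate 2. It was -1.14 without WT replicate 5 and -0.71 without WT replicate 6.

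Procr encodes the endothelial protein C receptor. It was at 2.58 and 2.78 RPKM in erbB3 WT, 2.20 and 2.31 in erbB3 KO, and 3.62 and 4.91 in Wnt1-Ribotag. The 3 groups did not overlap, with Wnt1-Ribotag highest. Its log2 fold change was 0.57 in Wnt1-Ribotag vs. WT (SE 0.23, adjusted p = 0.273 from limma), 0.78 in Wnt1-Ribotag vs. KO (SE 0.27, adjusted p = 0.206) and -0.21 in erbB3 KO vs. WT (adjusted p = 0.541). Without Wnt1-Ribotag replicate 1 the first was 0.77 and the next 0.97. The first was 0.37 without Wnt1-Ribotag replicate 2, 0.52 without WT replicate 5 and 0.62 without WT replicate 6. Among the 10 genes, Procr alone was both highest in Wnt1-Ribotag and lowest in erbB3 KO with no overlap of the 3 groups, an order shown by 8.67% of the 14320 genes that averaged 0.5 RPKM or more over the 6 libraries. Its Wnt1-Ribotag mean was 159% of WT, and its log2 fold change in erbB3 KO vs. WT shrank to -0.106 after median-ratio scaling and -0.034 after quantile normalization.

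Markers of the cells in which these genes are best known were also compared between Wnt1-Ribotag and WT. None of those tested passed limma, beside 0.00694% of all genes. Without overlap, 6 of 10 endothelium markers were lower in Wnt1-Ribotag and 1 was higher, beside 31.0 and 23.3% of all genes tested, the share to set beside each count that follows. Their sums overlapped, at 65.7 and 72.8 RPKM beside 70.3 and 74.8 in WT, with Egfl7 the most abundant and the higher one (18.3 and 28.6 RPKM beside 12.3 and 11.6), and without it they did not, at 47.5 and 44.2 RPKM beside 58.0 and 63.1. Of 6 mesothelium markers 4 were lower, with sums of 84.3 and 66.1 RPKM beside 142 and 128 and Upk3b the most abundant. All 9 macrophage markers were lower, with sums of 72.4 and 65.4 RPKM beside 142 and 126 and C1qb the most abundant. Of 8 connective tissue markers, led by Col3a1, 5 were lower, with sums of 2050 and 2155 RPKM beside 2886 and 2843. Of 7 erythroid markers, led by Hba-a1, 4 were lower, with sums of 4246 and 3832 RPKM beside 10154 and 5243. The part of these cells in the lower values of Thbd, F3 and F2rl3 was not tested. In erbB3 KO the sums were 78.9 and 60.4 for endothelium, 148 and 136 for mesothelium, 114 and 136 for macrophages, 3045 and 2136 for connective tissue, 3301 and 1701 for skeletal muscle, and 8059 and 6523 for erythroid cells.

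Within a library the 10 genes fell into tiers. F2r was highest in all 6. Thbd and Tfpi came next in all 6, their order differing between libraries, at 5.58 to 13.9 and 8.79 to 12.3 RPKM. F2, F3 and Procr, whose order also differed between libraries, lay between 0.804 and 4.91 RPKM, and Tfpi2, at 2.64 RPKM, stood above F3 in Wnt1-Ribotag 1. F2rl1 and Tfpi2 otherwise lay between 0.207 and 1.32 RPKM, with F2rl3 below both in 5 libraries but, at 0.463 RPKM, above F2rl1 in erbB3 KO 2, and F2rl2 was lowest in all 6.

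Inhibitors of thrombin itself were also measured. Serpine2, protease nexin-1, was the most abundant, at 42.7 and 36.1 RPKM in erbB3 WT, 29.5 and 32.1 in erbB3 KO, and 55.6 and 90.6 in Wnt1-Ribotag. The 3 groups did not overlap, although WT and KO did after median-ratio scaling, and the log2 fold change was -0.35 in erbB3 KO vs. WT (adjusted p = 0.403 from limma), 0.85 in Wnt1-Ribotag vs. WT (SE 0.28, adjusted p = 0.217) and 1.19 in Wnt1-Ribotag vs. KO (SE 0.28, adjusted p = 0.116). Serpinc1 was at 3.15 and 0.896 RPKM in erbB3 WT, 0.191 and 0.080 in erbB3 KO, and 1.095 and 1.19 in Wnt1-Ribotag. Serpind1, heparin cofactor II, was at 3.04 and 1.02 RPKM in erbB3 WT, 0.171 and 0.134 in erbB3 KO, and 4.07 and 1.22 in Wnt1-Ribotag. Both stood in erbB3 KO near the level of the hepatocyte markers, at 6.69 and 7.51% of the WT mean, unlike Serpine2 at 78.1%. Serpina5 was at most 0.015 RPKM in the 6 libraries.

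Of 18 clotting factor and cofactor genes found, 9 were tested in erbB3 KO vs. WT and none passed limma (6 at an unadjusted p under 0.05, beside 12.03% of all genes), with 6 lower without overlap, beside 37.4% of all genes as deposited and 23.2% after median-ratio scaling, and a median log2 fold change of -1.31. In Wnt1-Ribotag vs. KO 10 were tested and 2 passed limma, both higher, beside 1.19% of all genes and 6 of the 9 hepatocyte markers tested, also higher. These were Fga, at 8.52 and 2.19 RPKM in erbB3 WT, 0.287 and 0.122 in erbB3 KO, and 9.05 and 5.61 in Wnt1-Ribotag (log2 fold change 3.45 vs. KO, adjusted p = 0.0140), and Fgb (2.67, adjusted p = 0.0374). Of the 10 tested in Wnt1-Ribotag vs. WT none passed limma and 0 had an unadjusted p under 0.05, beside 0.00694 and 19.51% of all genes, and the median log2 fold change was 0.093, beside -0.05. F13a1 was at 8.28 and 12.2 RPKM in erbB3 WT, 10.5 and 11.2 in erbB3 KO and 7.90 and 6.88 in Wnt1-Ribotag, and Pros1, protein S, at 7.24 and 8.13, 8.74 and 6.75, and 10.02 and 11.2 RPKM. Klkb1 was not matched to a gene in the files.

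Of 7 fibrinolysis genes, 6 were tested in erbB3 KO vs. WT and none passed limma (2 at an unadjusted p under 0.05, beside 12.03% of all genes, median log2 fold change -0.34). In Wnt1-Ribotag vs. KO, where 1.19% of all genes and 6 of 9 hepatocyte markers passed, 1 of 6 did so, Serpinf2, antiplasmin, which was at 10.7 and 2.96 RPKM in erbB3 WT, 0.365 and 0.180 in erbB3 KO, and 7.62 and 4.14 in Wnt1-Ribotag (log2 fold change 3.0 vs. KO, adjusted p = 0.0246). None of 7 passed limma in Wnt1-Ribotag vs. WT, with 2 at an unadjusted p under 0.05, beside 19.51% of all genes. Plat, tissue plasminogen activator, was at 36.5 and 38.8 RPKM in erbB3 WT, 32.9 and 27.4 in erbB3 KO, and 17.4 and 18.6 in Wnt1-Ribotag, where its log2 fold change vs. WT was -1.04 (SE 0.16, adjusted p = 0.148 from limma). Plau, urokinase, was at 4.99 and 6.44 RPKM in erbB3 WT, 6.31 and 6.20 in erbB3 KO and 5.33 and 4.34 in Wnt1-Ribotag. Ggcx, the carboxylase that prothrombin needs to bind membranes, was at 11.8 and 10.95 RPKM in erbB3 WT, 11.4 and 8.71 in erbB3 KO, and 4.72 and 7.49 in Wnt1-Ribotag, and Vkorc1 was not matched.

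By likeness over the 6 libraries, the genes closest to F2 were Hpn (Pearson r = 0.98 of log2(RPKM + 0.5)), Acp5, Hgfac and Itih3 (0.98 each), among 14320 genes. Hpn was at 2.08 and 0.988 RPKM in erbB3 WT, 0.555 and 0.470 in erbB3 KO, and 1.82 and 1.17 in Wnt1-Ribotag. The genes closest to F2r were Fat3 (0.99), Ccdc136 (0.98), Adamts3, Gria1 and Actg2 (0.96 each). Actg2 was at 3.60 and 5.93 RPKM in erbB3 WT, 1.67 and 2.49 in erbB3 KO, and 3.76 and 2.29 in Wnt1-Ribotag. The 6 points share groups and libraries, and r is a description only.

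Of the 10 genes 8 matched the RefSeq promoter table of GRCm38.p6, F2rl1 and Thbd having no entry. The promoters of F2 and F2r are shown as those of the protease and of its most abundant receptor. Each runs over 300 bases, 5′ to 3′, on the strand of the gene and across its start, with CG dinucleotides in capitals. That of F2 lies on the minus strand at chr2:91636408-91636707 and that of F2r on the minus strand at chr13:95618417-95618716.
F2: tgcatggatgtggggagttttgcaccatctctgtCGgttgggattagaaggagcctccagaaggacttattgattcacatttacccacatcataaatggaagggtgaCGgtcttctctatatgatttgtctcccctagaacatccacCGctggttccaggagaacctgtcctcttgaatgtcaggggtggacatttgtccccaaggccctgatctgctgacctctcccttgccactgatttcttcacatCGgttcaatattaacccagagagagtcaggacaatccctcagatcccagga
F2r: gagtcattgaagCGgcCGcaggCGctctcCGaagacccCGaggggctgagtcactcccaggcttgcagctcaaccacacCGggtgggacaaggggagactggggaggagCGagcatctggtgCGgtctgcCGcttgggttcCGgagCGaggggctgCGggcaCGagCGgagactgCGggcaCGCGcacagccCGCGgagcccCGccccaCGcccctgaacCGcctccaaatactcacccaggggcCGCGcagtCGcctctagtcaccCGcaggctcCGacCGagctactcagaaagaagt
F2 has 4 CG in this window and F2r 28, beside a median of 7 over 32851 promoters, of which 31.4% have fewer than F2 and 85.8% fewer than F2r. F3 has 32, Procr 13, F2rl2 2 and F2rl3 0.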

How the data were processed

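Members and gene lists were chosen with earlier results of these data known. The authors aligned reads to mm9 with STAR, per the labels, and deposited RPKM per Ensembl gene ID, with a flag for genes without reads, which carry a floor value in place of 0. Of 23076 entries 3 had no value. Symbols came from GENCODE M21 (GRCm38), which matched 21583 of 23073 IDs. Positions are of GRCm38 and not of the authors' build, whose gene models were not used here. Depth was computed from the floor of 223 microRNA genes with 1 exon (81.2% gave the same depth within 0.0001). Counts were not recovered, so no count test was run.

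From the RPKM, limma 3.58.1 in R 4.3.3 (lmFit, eBayes with a trend) was run on log2(RPKM + 0.5) for each pair of groups. Benjamini-Hochberg adjustment was over all genes tested. The fit was tried on simulated data for erbB3 KO vs. WT only, drawn with the same spread in both groups. That trial does not cover the wider spread of the Wnt1-Ribotag libraries. Exact permutation tests were two-sided. Alternatives were other pseudocounts (0.1 and 1) and filters (none, or a mean of 1 RPKM), libraries scaled by median ratios or quantile-normalized, no trend in eBayes, a fit of all 6 libraries, each library left out, and replicate number as a block. Genes named are the 10, the thrombin inhibitors, the 3 most abundant and those past the threshold of each other pathway list, the most abundant marker of each cell type and any at the floor throughout a group, Erbb3, Sox10, and the 5 genes most like F2 and F2r, of which 1 is not reported here. No batch or date was given.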

Additional observations from a re-analysis of the deposited data

How the results depend on the processing

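Limits come first. With 2 libraries a group, the count of genes past the threshold moved with most choices. RPKM without counts leaves F2rl2 near the limit of depth. Leaving out a library assumes that the lone library of a group varies like the other group. Wnt1-Ribotag libraries differed from each other by a median of 0.39 on the log2 scale, beside 0.13 in erbB3 WT and 0.19 in erbB3 KO. Counts without one of the Wnt1-Ribotag libraries may therefore be too high, which was not tested.

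In erbB3 KO vs. WT, where 24 genes passed limma, the count was 0 with no filter (2155 at an unadjusted p under 0.05), 0 with all 6 libraries in the fit (495 unadjusted), 45 with no pseudocount, a setting chosen after seeing the data, and 11 to 106 with a library left out (lowest without KO replicate 2, highest without WT replicate 5). In Wnt1-Ribotag vs. WT, where 1 passed, it was 0 with no filter (3921 unadjusted), 2 with median-ratio scaling, 2 with no pseudocount, 138 with all 6 libraries, and 18 to 5857 with a library left out (highest without Ribotag replicate 2). In Wnt1-Ribotag vs. KO, where 171 passed, it was 112 with no filter, 83 with quantile normalization, 692 with all 6 libraries, and 107 to 3844 with a library left out. KO and Wnt1-Ribotag share the replicate numbers 1 and 2, and a replicate block gave 842 genes. Deviations from the group means of libraries with the same number had a correlation of 0.17 over 14325 genes, and nothing else pairs these libraries. The cause of these differences was not tested.

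Genes at least 2-fold different in all 4 pairs numbered 63, 337 and 566 in the 3 comparisons. At 1.5-fold they were 182, 1226 and 1440, and at 3-fold 28, 93 and 223. In Wnt1-Ribotag vs. WT they were 557 with a pseudocount of 0.1 and 210 with 1.

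For the 10 genes, 8 log2 fold changes reversed in sign. In erbB3 KO vs. WT, F2rl3 was 0.013 with quantile normalization, and Thbd ranged from -0.86 to 0.28 with a library left out (highest without KO replicate 2). In Wnt1-Ribotag vs. WT, F2 ranged from -0.41 (without WT replicate 6) to 0.71 and was -0.13 without Ribotag replicate 1, while F2rl1 ranged from -0.19 to 0.42 and Tfpi2 from -0.62 to 1.43, both lowest without Ribotag replicate 1. In Wnt1-Ribotag vs. KO, F2r ranged from -0.12 to 0.34 and Tfpi2 from -0.79 to 1.26, both lowest without Ribotag replicate 1. Of the other values, 11 of F2rl2 and F2rl3 moved by more than the spread with another pseudocount or scaling. A further 333 kept their direction and side of the threshold or moved by less than the spread. The rest passed the threshold, each only with a library left out. Such fits leave 1 library in a group, and their passes are not read here. None of the 10 genes was past the threshold with all libraries. Adjusted p of F2 in erbB3 KO vs. WT from limma ranged from 0.354 to 0.987 over the alternatives that kept all libraries.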
